A study of Mus musculus with 98 samples.

Results

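The near-break ends of the RAG break at Jk1 are the broken-end structures in which both DNA strands stopped within 20 positions of the lowest position in the tables. Each structure was listed by the position at which the 5'-ending strand stopped and by the overhang. Subtracting the overhang from that position gives the position of the 3'-ending strand. Members were chosen by these measured positions, as all structures with both strand positions from 2 to 21 in any of the 5 Jk1 tables, so their closeness to the lowest position is a description and not a result. Of the 2039 structures listed at Jk1, 233 were members. Positions are given below as nucleotides (nt) inside the lowest listed position, from 0 to 19 on each strand, and an end is written as 5'-strand position/3'-strand position. A 4/0 end thus had its 5'-ending strand at 4 nt and its 3'-ending strand at 0 nt, which leaves a 4-nt 3' overhang, and a 4/4 end was blunt. Position 2 was also the lowest position in the KpnI control table, where the cut lay at position 127, so it is the floor of the listing and not a measured break site. Another origin would shift all positions alike, and ends that reached past the floor are not listed.

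The ends were read by HCoDES (hairpin capture of DNA end structures), in which genomic DNA is treated with a single-stranded DNA ligase that links the strands of each broken end to one another. After bisulfite conversion and PCR, MiSeq read pairs show where each strand stopped. The material was genomic DNA of Abelson-transformed pre-B cell lines of the mouse. All 5 lines lacked DNA ligase IV (Lig4-/-), which seals breaks in non-homologous end joining. Lines A and B lacked ligase IV alone, lines 5 and 8 also lacked the histone variant H2AX (Lig4-/- H2AX-/-), and 1 line, B, also lacked the DNA damage protein 53BP1 (Lig4-/- 53BP1-/-). The titles give 48 h for all lines except H2AX-/- line 5, for which no time is given, and the tag shNT, left unexplained by the labels, stands in those of Lig4-/- line B. H2AX-/- line 8 was sequenced in set 2 and the other lines in set 4. Each table pooled the 3 libraries of a line, so the line was the replicate, with 2, 2 and 1 lines per genotype. The lines share the transformed cell type, and nothing in the labels says how the lines of a genotype were derived.

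RAG cuts between an antigen receptor gene segment and its recombination signal, and it leaves the coding end sealed as a hairpin. Artemis, a nuclease that works with DNA-PKcs, opens the hairpin at or near its tip, commonly off centre, so that opened coding ends often carry short 3' overhangs, which are then trimmed or filled in and joined. H2AX, phosphorylated in the chromatin beside a break, and 53BP1, which binds that chromatin, are known to limit the nuclease CtIP and with it the resection of ends in G1 cells. Jk1 (Igkj1) is a joining segment of the immunoglobulin kappa locus, 38 nt long in the RefSeq table of assembly GRCm38.p6. No genomic coordinates are stated, because the sources used here give neither the build behind the tables nor the place of position 2 within the segment.

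Of the 400 structures that 20 positions on each strand allow, 233 had reads in at least 1 table and 167 had none. Lig4-/- line A listed 202 of the members and line B listed 189. H2AX-/- line 5 listed 127, H2AX-/- line 8 listed 102 and the 53BP1-/- line listed 135. The mutant tables thus held fewer members, from 26419 to 41068 near-break reads against 172107 and 242647 in the Lig4-/- lines. The 65 members found in all 5 tables held 85.8% of near-break reads in Lig4-/- line B, 85.9% in H2AX-/- line 5, 89.3% in Lig4-/- line A, 94.5% in H2AX-/- line 8 and 94.8% in the 53BP1-/- line. Another 40 members appeared in 1 table only. Of the 10 most abundant members of each table, 8 were shared by all 5.

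**Figure D1:**
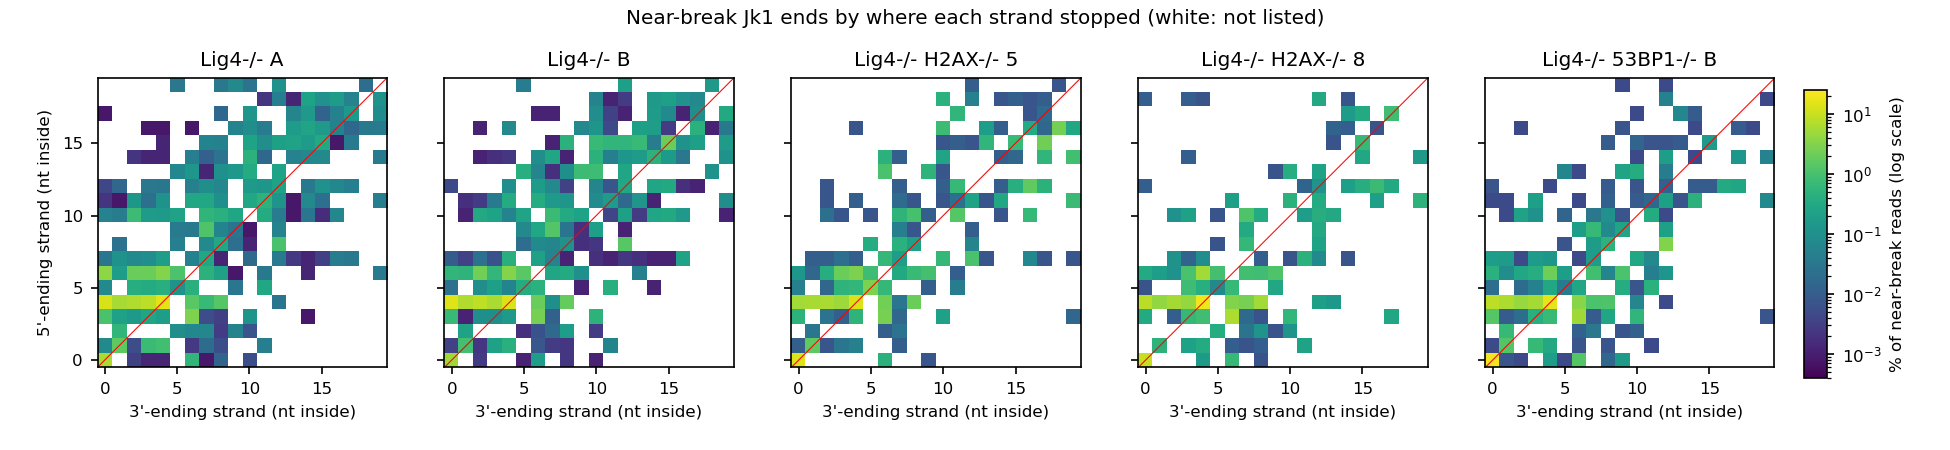
Share of near-break reads in each end structure, 1 panel per line, with the 5'-ending strand on the vertical axis and the 3'-ending strand on the horizontal axis (nt inside the lowest listed position) and a log colour scale. The red line marks blunt ends, 3' overhangs lie above it, and the row at 4 nt on the 5'-ending strand is bright in every panel.

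The listed members did not fill the grid evenly. Among the 196 structures with both strands at 0 to 13 nt, 59 had no reads in any of the 5 tables. The 4/5 end had 0 reads in all 5 tables, beside 77663 reads for the 4/4 end and 9983 for the 4/6 end. The 3/5 end likewise had 0 reads, beside 16227 for the 3/6 end. With the 5'-ending strand at 2, 9 or 13 nt, 7 of the 14 possible partners were listed, against 12 of 14 at 6, 7, 10 and 11 nt. The cause of these blank positions was not tested, and an end placed in a neighbouring structure would change its overhang class.

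Near-break ends made up 76.96% of all Jk1 reads in Lig4-/- line A (95% interval 76.8 to 77.1) and 56.46% in Lig4-/- line B (56.3 to 56.6). They made up 15.46% in H2AX-/- line 5 (15.3 to 15.6), 17.87% in H2AX-/- line 8 (17.7 to 18.1) and 15.91% in the 53BP1-/- line (15.8 to 16.1). All 3 mutant lines lay below both Lig4-/- lines. The mean was 66.7% ± 14.5 (SD, n = 2) in Lig4-/- cells and 16.7% ± 1.70 (SD, n = 2) in H2AX-/- cells, a 4.00-fold difference. The 53BP1-/- line was 4.19-fold lower than the Lig4-/- mean. The window was chosen with the greater resection of the mutant lines known, so this share is given as a description. Intervals are exact Clopper-Pearson intervals and cover counting error only, since several PCR reads can stem from 1 molecule and no molecular identifiers were counted. The average insert size listed for the libraries, whose unit is not stated, moved with the genotype, at 395 and 386 in the Lig4-/- lines, 278 and 264 in the H2AX-/- lines and 248 in the 53BP1-/- line. Its part in the results was not tested.

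Within the near-break ends, the mutant lines held fewer 3' overhangs and more blunt ends and 5' overhangs than Lig4-/- cells. The 3' overhangs are the class in which the 5'-ending strand is the shorter strand. They held 60.5% of near-break reads in Lig4-/- line A, 61.3% in Lig4-/- line B, 39.6% in H2AX-/- line 5, 36.8% in H2AX-/- line 8 and 34.7% in the 53BP1-/- line. The genotypes did not overlap, and the smallest gap between a mutant and a Lig4-/- line, 20.9 points, exceeded the 2.77 points between the H2AX-/- lines. A difference is called separated below when it meets both conditions. The second is that the smallest gap between genotypes exceeds every gap within the genotypes compared. For the single 53BP1-/- line the Lig4-/- lines alone set that gap, so the call is easier to meet than for H2AX-/- cells. The mean fell from 60.9% ± 0.578 (SD, n = 2) to 38.2% ± 1.96 (SD, n = 2) in H2AX-/- cells, and the 53BP1-/- line was 26.2 points below the Lig4-/- mean.

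The 5' overhangs, in which the 3'-ending strand is the shorter strand, went the other way. They held 13.7% and 15.5% of near-break reads in Lig4-/- lines A and B, 25.5% and 30.9% in H2AX-/- lines 5 and 8, and 24.3% in the 53BP1-/- line. Blunt ends held 25.8% and 23.2% in the Lig4-/- lines, 34.9% and 32.3% in the H2AX-/- lines and 41.0% in the 53BP1-/- line. Every mutant line lay above both Lig4-/- lines in both classes, and both differences were separated in both genotypes. There were 4.43 and 3.95 reads with a 3' overhang for each read with a 5' overhang in the Lig4-/- lines, against 1.55 and 1.19 in the H2AX-/- lines and 1.43 in the 53BP1-/- line.

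**Figure D2:**
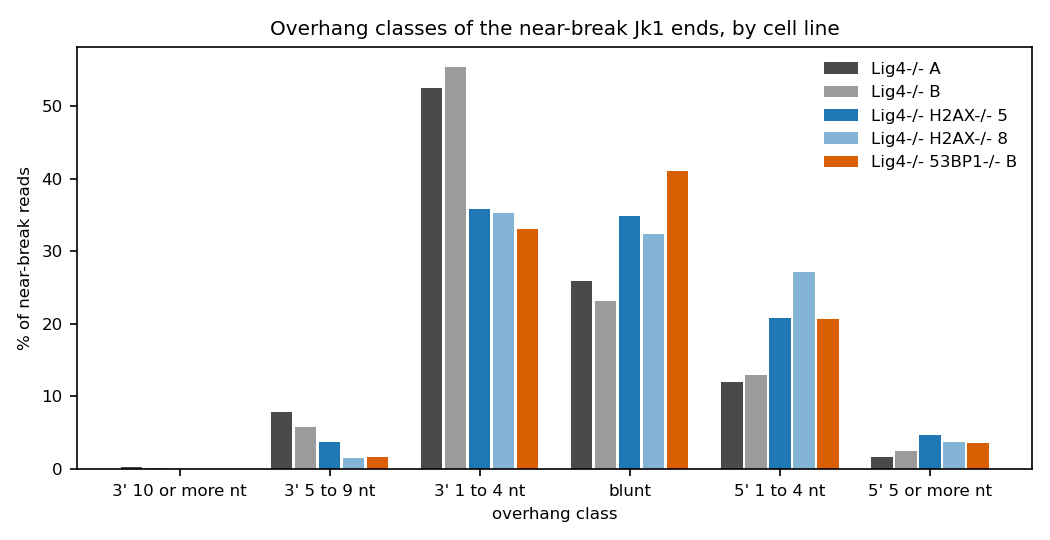
Percent of near-break reads in each overhang class, with 1 bar per line (dark and light shades of a colour are lines of 1 genotype, in the order of the legend). The 3' overhangs of 1 to 4 nt run from 33.0% to 35.8% in the mutant lines and from 52.4% to 55.4% in the Lig4-/- lines.

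With 2 lines against 2, or 2 against 1, the smallest p that a two-sided exact permutation test over lines can give is 0.333, and each separated difference had that p. Two-sided Fisher's exact tests on the pooled reads, which compare these pools and not the genotypes, passed for 40 of 42 pairs of lines over 7 measures after Benjamini-Hochberg adjustment. Leaving the 4/4, 4/0 and 0/0 ends out of every table took away the difference in blunt ends, which was then 0.25 points in H2AX-/- cells and -1.24 points in the 53BP1-/- line, neither separated. The difference in 3' overhangs was then -22.3 points in H2AX-/- cells and -21.9 points in the 53BP1-/- line, both separated.

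Among the 3' overhangs of 1 to 4 nt, the difference was largest at 4 nt. Ends with a 4-nt 3' overhang held 16.0% and 19.2% of near-break reads in the Lig4-/- lines, 6.64% and 7.96% in the H2AX-/- lines and 8.98% in the 53BP1-/- line. Ends with a 3-nt 3' overhang held 11.3% and 11.7% in the Lig4-/- lines, 9.64% and 7.40% in the H2AX-/- lines and 9.10% in the 53BP1-/- line. Both classes were lower in every mutant line, the 4-nt class by the wider gap. Ends with a 2-nt 3' overhang were at 12.9% and 14.99% in the Lig4-/- lines, 11.3% and 12.8% in the H2AX-/- lines and 7.83% in the 53BP1-/- line, so that H2AX-/- line 8 nearly met Lig4-/- line A. Ends with a 1-nt 3' overhang held 12.2% and 9.38% in the Lig4-/- lines, 8.24% and 7.07% in the H2AX-/- lines and 7.12% in the 53BP1-/- line. This class too was lower in every mutant line. Longer 3' overhangs, of 5 to 9 nt, held 7.86% and 5.84% in the Lig4-/- lines and from 1.52% to 3.71% in the mutant lines.

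On the scale of all Jk1 reads every overhang class fell, and by unequal amounts. Mean 3' overhangs fell 6.40-fold in H2AX-/- cells and 7.34-fold in the 53BP1-/- line, from 40.6% of all Jk1 reads to 6.35% and 5.53%. Blunt near-break ends fell 2.95-fold and 2.53-fold, and 5' overhangs fell 2.04-fold and 2.50-fold. The 0/0 end, with both strands at the lowest listed position, was 1.91-fold and 1.16-fold lower, less than any overhang class. It held 4.69% and 2.92% of all Jk1 reads in the Lig4-/- lines, 2.30% and 1.68% in the H2AX-/- lines and 3.29% in the 53BP1-/- line, which lay between both Lig4-/- lines.

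The 5'-ending strand stopped at 4 nt more often than at any other position in each of the 5 lines. That position held 52.4% and 53.4% of near-break reads in Lig4-/- lines A and B, 41.1% and 53.3% in H2AX-/- lines 5 and 8, and 48.3% in the 53BP1-/- line. The H2AX-/- lines overlapped with the Lig4-/- lines, and the gap between the H2AX-/- lines, 12.2 points, was larger than any gap to the Lig4-/- lines' mean. Leaving out H2AX-/- line 8 gave a separated difference of -11.8 points, and leaving out H2AX-/- line 5 gave 0.346 points. The 53BP1-/- line was 4.66 points below the Lig4-/- mean, a separated difference. With the 0/0 end left out of every table it was 4.76 points above the mean, also separated. The next position of the 5'-ending strand by share was 6 nt in the Lig4-/- lines, with 13.4% and 9.50% of near-break reads, and in H2AX-/- line 8, with 10.95%. It was 0 nt in H2AX-/- line 5 (15.3%) and in the 53BP1-/- line (22.4%).

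Ends with the 5'-ending strand at 4 nt differed between genotypes in their partner strand. Of these ends, 63.2% and 67.7% had a 3' overhang in the Lig4-/- lines, against 54.8% and 40.9% in the H2AX-/- lines and 51.7% in the 53BP1-/- line. Ends with a 5' overhang made up 6.71% and 7.44% in the Lig4-/- lines, 11.0% and 21.3% in the H2AX-/- lines and 12.1% in the 53BP1-/- line. Neither share overlapped between mutant and Lig4-/- lines. The H2AX-/- lines stood farther from each other in both shares than the Lig4-/- lines did.

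In each line the most abundant of these ends was either the 4/4 blunt end or the 4/0 end, which has a 4-nt 3' overhang. The 4/4 end held 15.8% and 13.3% of near-break reads in the Lig4-/- lines, 14.1% and 20.1% in the H2AX-/- lines and 17.5% in the 53BP1-/- line. The 4/0 end held 12.6% and 14.6% in the Lig4-/- lines, 5.39% and 7.82% in the H2AX-/- lines and 8.15% in the 53BP1-/- line. The 4/4 end overlapped between Lig4-/- and H2AX-/- lines, whereas the 4/0 end was lower in all 3 mutant lines. For each read of the 4/4 end there were 0.796 and 1.10 reads of the 4/0 end in the Lig4-/- lines, 0.384 and 0.389 in the H2AX-/- lines and 0.466 in the 53BP1-/- line.

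The ends between them, with 3' overhangs of 1 to 3 nt, shifted less. The 4/1 end held 5.81% and 6.71% of near-break reads in the Lig4-/- lines, 5.92% and 4.13% in the H2AX-/- lines and 6.54% in the 53BP1-/- line, so all genotypes overlapped. The 4/2 end, at 6.63% and 8.65% in the Lig4-/- lines, was at 6.23% and 5.55% in the H2AX-/- lines and 4.60% in the 53BP1-/- line. The 4/3 end, at 8.17% and 6.17%, was at 4.96% and 4.32% in the H2AX-/- lines and 5.64% in the 53BP1-/- line. The 4/2 and 4/3 ends were lower in every mutant line, by less than 2-fold.

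**Figure D3:**
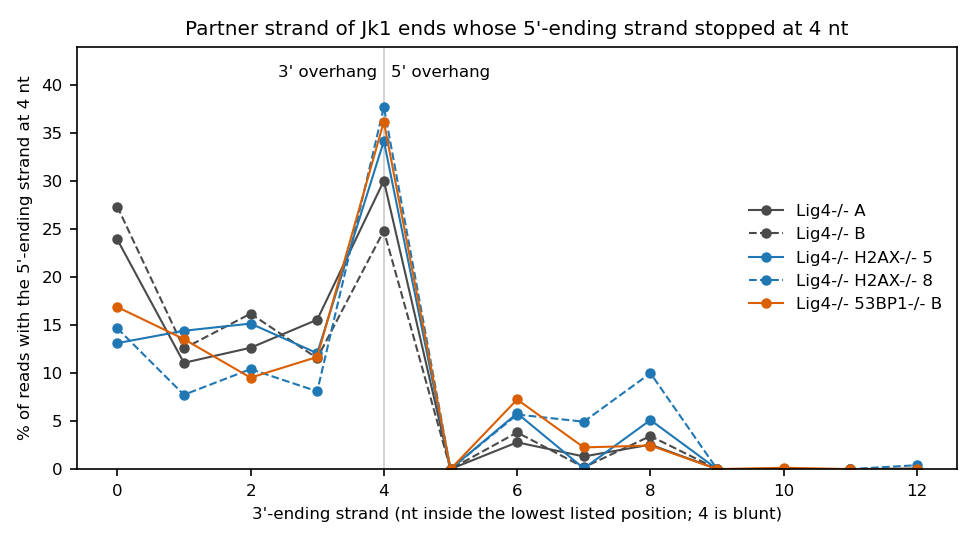
Position of the 3'-ending strand among reads whose 5'-ending strand stopped at 4 nt, as percent of those reads, with 1 line of points per cell line. At 0 nt (a 4-nt 3' overhang) the Lig4-/- lines, at 23.9% and 27.4%, lie above the mutant lines at 13.1% to 16.9%, at 4 nt (blunt) they lie below them, and no line has reads at 5 nt or 9 nt.

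The 0/0 end, in which both strands stopped at the lowest listed position, rose within the near-break reads. It held 6.10% of near-break reads in Lig4-/- line A, 5.16% in Lig4-/- line B, 14.8% in H2AX-/- line 5, 9.40% in H2AX-/- line 8 and 20.7% in the 53BP1-/- line. All mutant lines were higher. The 53BP1-/- line was 15.03 points and 3.67-fold above the Lig4-/- mean, a separated difference. In H2AX-/- cells the mean was 12.1% ± 3.85 (SD, n = 2) against 5.63% ± 0.662 (SD, n = 2), 2.15-fold higher, but the smallest gap to a Lig4-/- line, 3.30 points, was less than the 5.45 points between the H2AX-/- lines. The difference was separated without H2AX-/- line 5, at 3.77 points, and without line 8, at 9.21 points, where the Lig4-/- lines alone set the spread. Whether unopened hairpins were read, and at which end they would be listed, is not given in the sources used here.

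The 3'-ending strand was at 0 nt in 23.9% and 21.1% of near-break reads of the Lig4-/- lines, 21.0% and 17.9% of the H2AX-/- lines and 30.9% of the 53BP1-/- line. The H2AX-/- lines lay below the Lig4-/- lines, with a smallest gap of 0.178 points, which was not separated. Without H2AX-/- line 5 the difference was -4.57 points and separated. The 53BP1-/- line was 8.39 points above the Lig4-/- mean, which was separated. With the 0/0 end left out of every table, the difference from the Lig4-/- mean was -4.98 points in the 53BP1-/- line and -9.59 points in H2AX-/- cells, both separated.

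Ends with the 5'-ending strand at 6 nt were among those with the largest relative falls. The 6/2 end, with a 4-nt 3' overhang, held 1.97% and 2.40% of near-break reads in the Lig4-/- lines, 0.397% and 0.113% in the H2AX-/- lines and 0.297% in the 53BP1-/- line. It fell 8.55-fold in H2AX-/- cells and 7.35-fold in the 53BP1-/- line. The 6/0 end, with a 6-nt 3' overhang, varied widely between the Lig4-/- lines, at 3.91% and 0.582%, and was lower in every mutant line, at 0.140%, 0.344% and 0.468%. The 6/4 end, with a 2-nt 3' overhang, held 3.29% and 3.16% in the Lig4-/- lines, 2.88% and 5.36% in the H2AX-/- lines and 2.18% in the 53BP1-/- line, so the H2AX-/- lines lay on both sides and the 53BP1-/- line below. The 6/3 end, with a 3-nt 3' overhang, held 2.07% and 0.593% in the Lig4-/- lines, 2.06% and 1.05% in the H2AX-/- lines and 0.394% in the 53BP1-/- line. The 6/0 and 6/2 ends were named for being lower in every mutant line, so their direction follows from that choice. At 6/3 and 6/4 the 53BP1-/- line was below both Lig4-/- lines, and the H2AX-/- lines were not both below them. Other ends with the 5'-ending strand at 6 nt and a 3' overhang are not given here, so no pattern is drawn for that position.

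Several rises were in ends with a 5' overhang. The 6/9 end, with a 3-nt 5' overhang, had 2 reads in Lig4-/- line A and 177 in Lig4-/- line B, or 0.000824% and 0.103% of near-break reads. In the mutant lines it had 253, 337 and 444 reads, or 0.958%, 1.19% and 1.08%. It was higher in all 3 mutant lines, also as a share of all Jk1 reads, with 6.16-fold and 5.86-fold higher means in H2AX-/- cells and in the 53BP1-/- line. The 12/16 end, with a 4-nt 5' overhang, held 0.0684% and 0.00174% of near-break reads in the Lig4-/- lines, 1.70% and 0.737% in the H2AX-/- lines and 0.343% in the 53BP1-/- line. It too was higher in every mutant line. Both ends were named as rises in H2AX-/- cells, so their direction there follows from that choice. As a share of all Jk1 reads the 12/16 end was at 0.0546% in the 53BP1-/- line and 0.0527% in Lig4-/- line A, nearly equal.

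More abundant 5' overhangs differed less evenly. The 3/6 end held 2.94% and 2.62% of near-break reads in the Lig4-/- lines, 2.60% and 6.39% in the H2AX-/- lines and 5.10% in the 53BP1-/- line. The 4/6 end held 1.46% and 2.04% in the Lig4-/- lines, 2.39% and 3.03% in the H2AX-/- lines and 3.50% in the 53BP1-/- line. The 4/6 end was higher in all mutant lines, and the 3/6 end only in H2AX-/- line 8 and in the 53BP1-/- line. The 4/8 end, at 1.34% and 1.84% in the Lig4-/- lines, was higher in the H2AX-/- lines, at 2.10% and 5.32%, and lower in the 53BP1-/- line, at 1.19%. The 8/12 end went the other way, with 1.04% and 1.44% in the Lig4-/- lines, 0.0606% and 0.244% in the H2AX-/- lines and 3.10% in the 53BP1-/- line. The difference between both mutant genotypes at these ends was not tested. The 4/8 end was named as a rise in H2AX-/- cells and the 8/12 end as a rise in the 53BP1-/- line, so those directions follow from the choice.

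**Figure D4:**
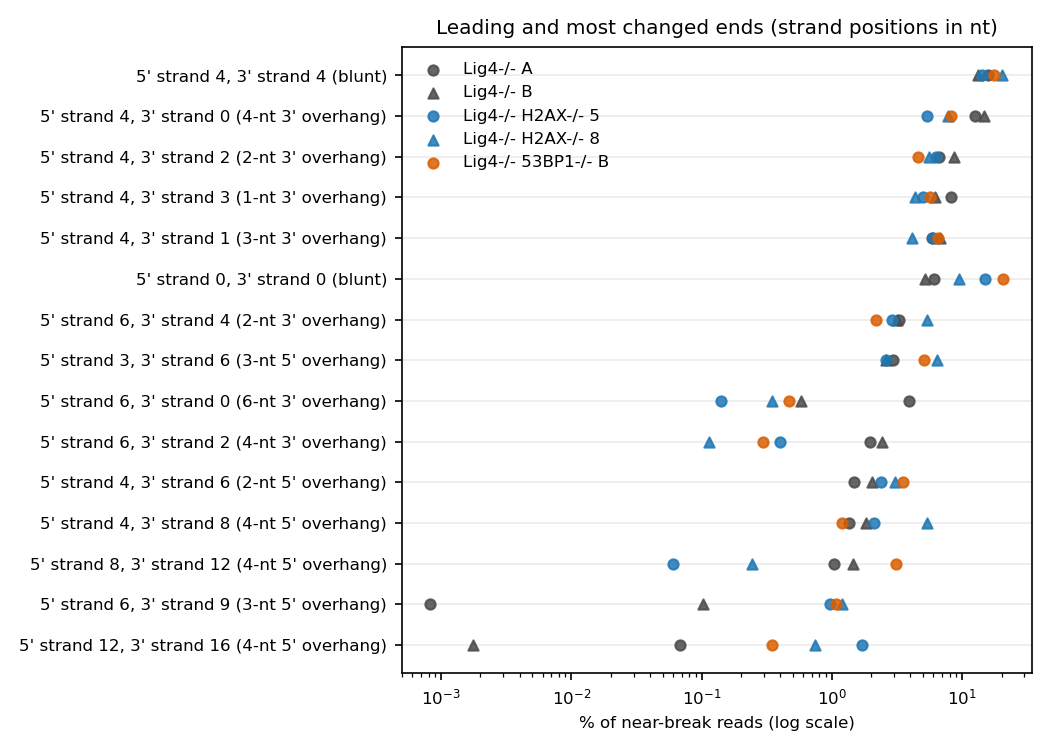
Percent of near-break reads (log scale) of the leading and most changed ends, with 1 point per line, ordered by the Lig4-/- mean. The 4/4 and 4/0 ends lead the list, the 6/2 and 6/0 ends lie lower in the mutant lines, and the 6/9 and 12/16 ends lie higher in them.

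Counted over structures, most members fell as a share of all Jk1 reads. Of the 233 members, 157 had a mean share of 0.01% or more over the 5 tables and were compared. A member was called when every mutant line lay on the same side of both Lig4-/- lines and the means differed 2-fold or more, with no p. In H2AX-/- cells 95 of 157 members were called lower, against 13.8% of all 1256 Jk1 structures compared, and 4 were called higher, against 5.89%. In the 53BP1-/- line 114 were called lower, against 18.1%, and 11 higher, against 38.6%. The window as a whole was 4.00-fold and 4.19-fold lower, so lower calls for most members follow from its choice. The 1256 structures include the members and are no independent background. Of them, 610 had no read in either Lig4-/- line and could not be called lower, against 2 of the 157 members. The higher calls in H2AX-/- cells numbered 13 without Lig4-/- line A, 14 without H2AX-/- line 5 and 16 without line 8, and those in the 53BP1-/- line 23 without Lig4-/- line A and 7 without line B. The share over all Jk1 structures was not computed with a line left out. The median log2 ratio of mutant over Lig4-/- means, with a mean of 0 set to 3 reads per table, was -3.01 over the members and 0.92 over all structures compared in H2AX-/- cells. In the 53BP1-/- line it was -4.51 and 0.26.

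Members also changed relative to each other. As a share of near-break reads, 64 of 157 members (40.8%) were called lower in H2AX-/- cells, where structures outside the window, as shares of the reads outside it, were called lower at 9.92%. Another 15 members were called higher, against 4.91% outside, and 25 without Lig4-/- line A, 31 without H2AX-/- line 5 and 31 without line 8. The share outside was not computed with a line left out. In the 53BP1-/- line 86 members were called lower, against 12.5% outside, and 29 higher, against 40.5%. Fewer reads in the mutant windows leave rare members at 0 more often. In the H2AX-/- lines 28 of the 157 members had no read, against 444 of all 1256 structures compared. In the 53BP1-/- line 43 members had none, against 509 of all structures compared. The shares called lower outside are also held down, since structures at 0 in both Lig4-/- lines cannot be called lower. That was so for 610 of all 1256 structures compared and for 2 of the 157 members. The excess of lower calls among members was not corrected for this.

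By overhang class, also as shares of near-break reads, the calls fell unevenly. Of 87 members with a 3' overhang, 50 were called lower in H2AX-/- cells, where 12.4% of structures with a 3' overhang outside the window were called lower, and 4 higher, against 2.19%. In the 53BP1-/- line 59 were called lower, against 15.3%, and 8 higher, against 31.5%. Of 56 members with a 5' overhang, 10 were called lower in H2AX-/- cells and 10 higher, each against 7.04%. In the 53BP1-/- line 21 were called lower, against 8.85%, and 17 higher, against 51.5%. Of 14 blunt members, 4 were called lower in H2AX-/- cells, against 11.3%, and 1 higher, against 13.2%. In the 53BP1-/- line 6 were called lower, against 17%, and 4 higher, against 30.2%. In all 3 classes the share called lower was above that of the structures outside, in the blunt class over 14 members only. Both genotypes were compared with the same Lig4-/- lines.

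Among the members, 24 had reads in both Lig4-/- lines and none in any mutant line. Together they held 1.04% of near-break reads in line A and 1.70% in line B. No member had reads in every mutant line and in neither Lig4-/- line. The mutant lines had 26419 to 41068 near-break reads, against 172107 and 242647 in the Lig4-/- lines, so rare ends are more often missed in them. The same count over all Jk1 structures was not made, and the part of read depth was not tested. If an absent end had no read, its share could be up to 0.0114% of near-break reads in H2AX-/- line 5, 0.0106% in H2AX-/- line 8 and 0.00730% in the 53BP1-/- line. Only structures with 2 reads or more are listed, so an absent end may have had 1 read, and these limits are then too low.

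The near-break reads were concentrated in few ends in all lines. The 6 most abundant ends held 50% of near-break reads in each Lig4-/- and each H2AX-/- line, and 4 did so in the 53BP1-/- line. For 80% of near-break reads, 21 and 25 ends were needed in the Lig4-/- lines, 22 and 17 in the H2AX-/- lines and 13 in the 53BP1-/- line. Between Lig4-/- lines A and B, 21.0% of near-break reads would have to be moved to other ends to make the tables equal, and between H2AX-/- lines 5 and 8 it was 34.2%. Between Lig4-/- and mutant lines it was 32.02% to 38.2%. The H2AX-/- lines therefore differed from each other about as much as from the Lig4-/- lines.

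At the edge of the window the structures were rare. The most abundant just inside, with 1 strand at 19 nt, were the 17/19 end, at 0.0653% and 0.184% of all Jk1 reads in the Lig4-/- lines and 0 reads in the mutant lines, and the 11/19 and 14/19 ends. The 11/19 end held 0.0355% and 0.0531% in the Lig4-/- lines, 0.114% and 0.0899% in the H2AX-/- lines and 0.0128% in the 53BP1-/- line. The 14/19 end held from 0.00853% to 0.135% over the 5 lines. Just outside, the 19/20 end held from 0 to 0.158%, the 20/20 end from 0 to 0.221% and the 20/18 end from 0 to 0.118% of all Jk1 reads. Ends on both sides of the edge were of like abundance.

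The same lines were read at a RAG break in a chromosomal recombination substrate, to which the same rule was applied. The 5'-ending strand stopped mostly at other listed positions at that break. In the near-break reads at Jk1 it was at 4 nt in 41.1% to 53.4%, and at the substrate in 0.150% to 6.92%, higher at Jk1 in 5 of 5 lines by a mean of 47.1 points ± 7.41 (SD, n = 5). At 2 nt it was the reverse, with 16.8% to 31.9% at the substrate and 0.0681% to 0.877% at Jk1, lower at Jk1 in 5 of 5 lines, with a mean difference of -25.97 points ± 6.63 (SD, n = 5). Each had a two-sided exact sign-flip permutation p of 0.062, the smallest that 5 lines can give, or 0.141 adjusted over 9 comparisons. The breaks differ in sequence and in PCR, and perhaps in where the break lies relative to the lowest listed position. These cannot be told apart.

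Long 3' overhangs were also scarcer at Jk1. Those of 10 nt or more held 2.03% to 7.61% of near-break reads at the substrate and 0.0151% to 0.223% at Jk1, lower in 5 of 5 lines (exact sign-flip permutation p = 0.062, adjusted p = 0.141). The overhang classes as a whole did not differ beyond the spread between lines. The 3' overhangs were 1.97 points lower at Jk1 ± 11.4 (SD, n = 5), with 2 of 5 lines higher, and the 5' overhangs were 1.55 points lower ± 4.42 (SD, n = 5), also with 2 of 5 lines higher. Without H2AX-/- line 8 the 3' overhangs were 2.24 points higher at Jk1. Across genotypes the substrate also had fewer 3' overhangs in the 53BP1-/- line, at 23.5% against 65.5% and 55.9% in the Lig4-/- lines, a separated difference. The H2AX-/- lines, at 42.2% and 55.6%, were not separated there, with a smallest gap of 0.273 points. Another 53BP1-/- line, C, was read at the substrate but not at Jk1, with 3528 near-break reads. Its overhang classes were not compared here.

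**Figure D5:**
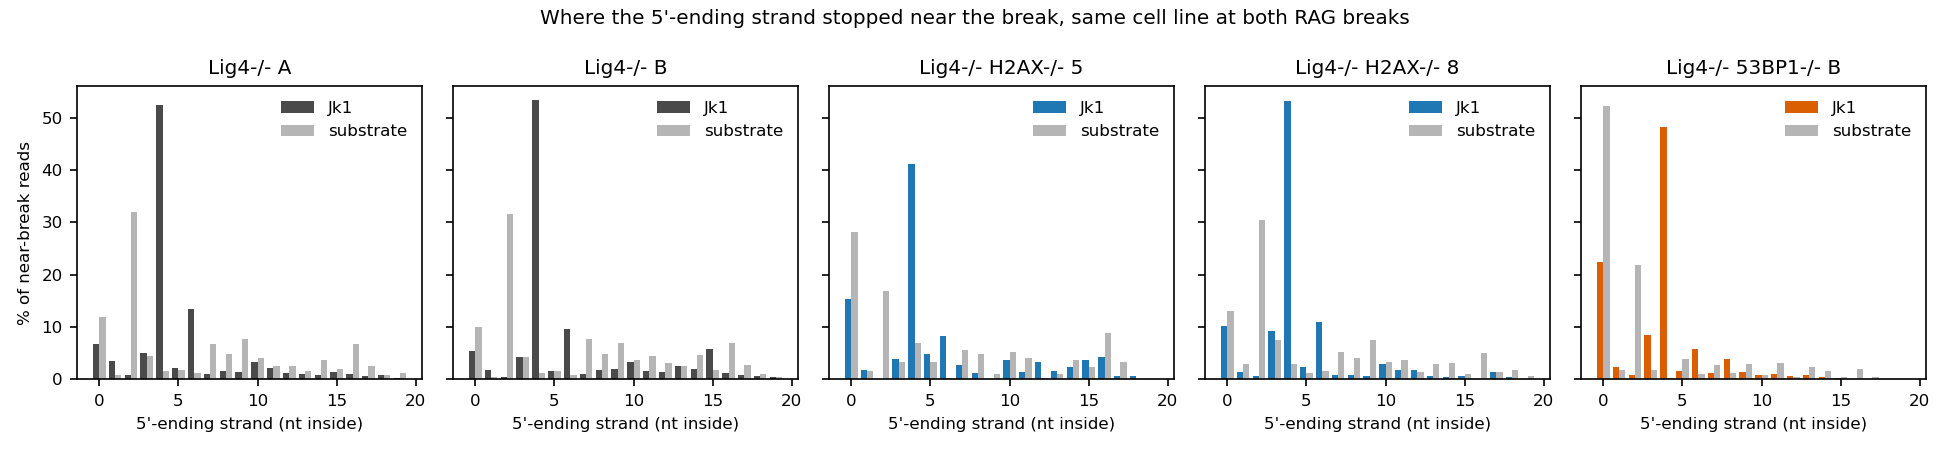
Position of the 5'-ending strand (nt inside the lowest listed position) in near-break reads at Jk1 (coloured bars) and at the substrate (grey bars), 1 panel per line, in percent of near-break reads of that table. At Jk1 every line peaks at 4 nt with 41.1% to 53.4%, whereas the substrate peaks at 0 nt or 2 nt.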

How the data were processed

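The authors deposited, per the file headers, 1 table per line and break with a position, an overhang and a read count for each end structure. The deposited counts are not normalised, and the sources used here name no aligner, read filter or genome build. The sign of the overhang was taken from the KpnI table: KpnI leaves a 4-nt 3' overhang, and 99.2% of its reads were in a structure with the value 4. Tables that repeat the values of another were not used. The members and lists were chosen with earlier results of these data known. Shares of reads, exact Clopper-Pearson 95% intervals, Fisher's exact tests and exact permutation tests used scipy 1.17.1 and numpy 2.4.6, tables were read with pandas 2.3.3 under Python 3.11.15, and plots were made in matplotlib 3.10.9. Reads per Jk1 table ran from 157970 to 315274, and the tables list structures with 2 reads or more. A structure absent from a table was set to 0. Named ends were the 8 highest per genotype by mean share of near-break reads, the 5 largest rises and falls per mutant genotype among ends on the same side of both Lig4-/- lines, the ends from 4/0 to 4/4, the 0/0 end and the 3 most abundant on each side of the edge. The structure calls were run on simulated data, in which 60 of 60 changed structures were recovered in each genotype, with 0 and 1 false calls among the other structures. All simulated tables were drawn from the mean Lig4-/- shares, without differences between lines and without the rarer structures. The changes put in were larger than 2-fold. The simulation therefore checks the code only and gives no rate of false calls in these data. No sequence is printed, since the Jk1 sequence was not used here.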

Additional observations from a re-analysis of the deposited data

How the results depend on the processing

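Differences below are mutant minus Lig4-/- in points, and 111 of 149 alternative values kept their direction and their call, separated or not. Of the others, 17 changed direction, 12 were no longer separated and 9 became separated. Another 14, of the 53BP1-/- line against 1 Lig4-/- line, have no gap within a genotype and so no call. The share of all Jk1 reads in the near-break window kept its direction under every alternative run and was separated in each that allows a call, at -60.3 to -39.8 points in H2AX-/- cells and, with no call, -61.0 to -40.5 in the 53BP1-/- line when a line was left out. Counting each end once gives rare ends the weight of abundant ones. It left the H2AX-/- difference at -7.95 points for 3' overhangs and 5.72 for 5' overhangs, neither separated. The H2AX-/- difference for 0/0 ends, 0.372 and separated, then restates only how many members each line listed. The same counting turned the difference at 4 nt to 3.71 in H2AX-/- cells and 3.06 in the 53BP1-/- line. That of ends with the 3'-ending strand at 0 nt became 0.954 in H2AX-/- cells.

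Without the most abundant end of each table the H2AX-/- differences were -17.0 points for 3' overhangs, -0.126 for blunt ends, 0.388 at 4 nt and -0.762 for 0/0 ends. Those of the 53BP1-/- line were -19.5 for 3' overhangs, 6.09 for blunt ends, 16.4 at 4 nt, -5.08 for the 3'-ending strand at 0 nt and -6.64 for 0/0 ends. The end removed was 4/4 in Lig4-/- line A and H2AX-/- line 8, 4/0 in Lig4-/- line B and 0/0 in H2AX-/- line 5 and the 53BP1-/- line, so these values compare tables without different ends. In alternatives chosen after seeing the data, leaving the 0/0 end out of every table gave 4.76 at 4 nt in the 53BP1-/- line and, for the 3'-ending strand at 0 nt, -9.59 in H2AX-/- cells and -4.98 in the 53BP1-/- line. Leaving out the 4/4, 4/0 and 0/0 ends gave 0.25 for blunt ends in H2AX-/- cells, and -1.24 for blunt ends, 4.69 at 4 nt and -1.12 for the 3'-ending strand at 0 nt in the 53BP1-/- line. With positions of 0 to 9 nt the H2AX-/- differences were 9.01 for 5' overhangs and 12.5 for blunt ends, not separated, and with 0 to 29 nt the 0/0 difference was 4.98, separated. With the origin at position 3 the ends named by position are other ends. The H2AX-/- differences were then 1.58 for blunt ends, 1.93 at 4 nt and -0.362 for ends with both strands at the origin. Those of the 53BP1-/- line were -0.120 and 0.200 for the last 2. Calling ends with 1 nt of difference blunt gave 7.32 for blunt ends in H2AX-/- cells. With only sequencing set 4, which leaves out H2AX-/- line 8, the H2AX-/- differences were -11.8 at 4 nt and 9.21 for 0/0 ends, both separated. Leaving out 1 line gave H2AX-/- differences of -11.8 to 0.346 at 4 nt, -4.57 to -1.54 for the 3'-ending strand at 0 nt and 3.77 to 9.21 for 0/0 ends.

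Of 60 alternative counts of members called, 37 were within 1.5-fold of the count reported. The share of all Jk1 structures called was not computed under these settings. The counts therefore show only how the calls among members depend on the setting. With a mean share of 0.1% or more, which compares fewer members, 30 members were called lower and 2 higher in H2AX-/- cells and 35 and 2 in the 53BP1-/- line on the scale of all Jk1 reads. On the scale of near-break reads the counts were then 13 and 8, and 16 and 9. At 4-fold the higher calls were 2 and 6 of all Jk1 reads and 9 and 14 of near-break reads. Without a filter 20 members were called higher in the 53BP1-/- line, and with only set 4 the H2AX-/- lines had 16 higher calls of all Jk1 reads and 31 of near-break reads. Leaving out 1 line gave 3 to 16 higher calls in H2AX-/- cells and 7 to 23 in the 53BP1-/- line of all Jk1 reads, and 15 to 31 in H2AX-/- cells of near-break reads.

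Against the substrate, the mean difference in 3' overhangs was 3.49 points with each end counted once, 2.65 with positions of 0 to 9 nt, and -5.27 to 2.24 when a line was left out. The difference at 4 nt was 0.929 with each end counted once, no longer in the same direction in all lines. With positions of 0 to 9 nt no 3' overhang of 10 nt can be listed, so that alternative gives no value there. Breaks were matched by line. No paired analysis was possible because, between genotypes, the replicate numbers stand for the 3 libraries of a line, which each table pools. The number of lines limits every comparison between genotypes, and 1 line, B, stands for 53BP1-/- cells in each of them.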

Other observations

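The deeper near-break ends differed as much between lines of a genotype as between genotypes. Ends whose deeper strand lay at 15 to 19 nt held 4.63% and 10.2% of near-break reads in Lig4-/- lines A and B, 14.5% and 5.31% in H2AX-/- lines 5 and 8, and 1.28% in the 53BP1-/- line. The 5'-ending strand was at 15 nt in 1.43% and 5.70% of near-break reads of the Lig4-/- lines and in 3.63% and 0.648% of the H2AX-/- lines. Ends with both strands at 0 to 4 nt held 60.9% and 57.5% in the Lig4-/- lines, 54.2% and 54.4% in the H2AX-/- lines and 68.7% in the 53BP1-/- line. At the substrate 135 of the 400 possible near-break structures were listed in none of the same lines' tables, against 167 at Jk1, and 60 were listed at neither break. The 4/1, 4/2 and 4/6 ends, which hold reads in every Jk1 table, were listed in none of the 5 substrate tables.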
